A study of Mus musculus with 12 samples.

Results

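The potassium channel genes of the mouse cortex were described here as the set of all genes whose symbol has the form Kcn followed by letters and a number, which are the pore-forming and auxiliary subunits of potassium channels. The rule used names only, and it found 91 genes among the 48526 genes of the tables. RNA was measured in the cortex of 12 untreated mice held on a C57Bl/6J background. The 4 groups were non-transgenic controls at 3 months of age, TAU58/2 transgenic mice at 3 months, non-transgenic controls at 10 months and TAU58/2 transgenic mice at 10 months, with 3 biological replicates in each. TAU58/2 mice carry human tau with the P301S change, and the line is known to drive it from the mouse Thy1 promoter, which is active in neurons. No other allele or agent is named in the labels, and by label the controls carry no transgene. The comparisons address how expression differs with the transgene at each age and with age in each genotype.

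Potassium channels let potassium ions leave or enter cells along their gradient, and they set the resting potential, end the action potential and limit repetitive firing. Voltage-gated subunits of the Kv families assemble as tetramers, with auxiliary subunits that change their gating or their transport to the membrane. Inward rectifiers hold the resting potential and, in astrocytes, take up potassium released by active neurons. The two-pore domain subunits carry leak currents, and the calcium- and sodium-activated subunits open after activity.

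Expression is given in FPKM, a unit that divides the fragments of a gene by its transcript length and by the size of the library, so that levels can be compared between genes per length. The libraries summed to between 125933 and 158077 FPKM over all genes. Steps in the values of low genes placed the relative depth of the libraries between 1.07 and 1.38 times that of the 10-month control 1 library, from a ratio shared by 8.56% to 12.8% of the low genes, and the absolute depth is unknown. The check of the labels by Mapt, the tau gene, and Thy1 gave different outcomes at the 2 ages. Mapt at 3 months averaged 46.1 ± 2.48 FPKM under the transgenic label and 8.70 ± 2.88 under the control label (SD, n = 3, exact permutation p = 0.1, the smallest possible with 3 against 3). At 10 months these means were 19.4 ± 20.6 and 20.0 ± 19.7 FPKM (SD, n = 3, exact permutation p = 0.9), and Thy1 did not follow the labels either (exact permutation p = 0.4). In replicate order, Mapt at 10 months was at 42.59, 12.42 and 3.312 FPKM in transgenic and 42.75, 8.126 and 9.077 in control libraries. Thy1 was at 171.8, 113.9 and 159.4 FPKM in the same transgenic and 114.7, 314.3 and 176 in the same control libraries. Why these values depart from the labels was not tested. Groups are therefore called by their labels, and every 10-month genotype direction rests on those labels. Each age was deposited as its own table, so an age difference and a difference between the tables cannot be told apart. Of the markers of cortical cells, Slc17a7 of excitatory neurons (98.2 to 233 FPKM), Aldoc of astrocytes (192 to 474 FPKM) and Pvalb of inhibitory neurons (20.9 to 91.0 FPKM) were above 0 in all 12 libraries, while Neurod6 of excitatory and Sst of inhibitory neurons were each listed at 0 in 2.

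Promoter sequences are shown for 8 members that the results turn on, to set genes found well above 0 in every library beside genes near 0 in some and a gene listed at 0. They are from the RefSeq promoter table on GRCm38.p6, which held 66 of the 91 members. Each is the stretch of 150 bases before the start site, 5′ to 3′ on the gene's strand, with every CG dinucleotide in capitals. Kcnip3 (chr2:127522095-127522244, minus strand) and Kcna6 (chr6:126740675-126740824, minus strand) were at 6.22 FPKM or more in all 12 libraries. Kcnj4 (chr15:79505242-79505391, minus strand), Kcnj10 (chr1:172341060-172341209, plus strand) and Kcnf1 (chr12:17176889-17177038, minus strand) were either high or near 0. Kcnj16 (chr11:110967883-110968032, plus strand) and Kcnk13 (chr12:99964349-99964498, plus strand) had the smallest unadjusted p-values of the genotype comparisons. Kcnj15 (chr16:95257408-95257557, plus strand) was listed at 0 in all 12 libraries.
Kcnip3: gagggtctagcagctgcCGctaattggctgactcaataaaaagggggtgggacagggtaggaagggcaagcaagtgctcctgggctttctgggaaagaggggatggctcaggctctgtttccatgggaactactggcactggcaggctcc
Kcna6: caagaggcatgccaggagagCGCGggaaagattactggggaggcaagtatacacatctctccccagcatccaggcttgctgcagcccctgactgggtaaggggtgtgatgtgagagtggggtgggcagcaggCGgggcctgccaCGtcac
Kcnj4: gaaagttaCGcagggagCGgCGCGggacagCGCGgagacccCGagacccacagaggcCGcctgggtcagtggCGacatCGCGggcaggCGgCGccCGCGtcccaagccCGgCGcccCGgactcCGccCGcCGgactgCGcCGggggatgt
Kcnj10: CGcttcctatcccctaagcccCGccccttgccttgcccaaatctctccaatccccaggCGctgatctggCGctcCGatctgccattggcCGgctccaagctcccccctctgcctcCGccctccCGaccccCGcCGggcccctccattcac
Kcnf1: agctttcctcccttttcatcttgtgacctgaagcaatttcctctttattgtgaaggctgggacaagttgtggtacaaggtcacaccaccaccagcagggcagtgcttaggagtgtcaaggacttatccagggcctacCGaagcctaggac
Kcnj16: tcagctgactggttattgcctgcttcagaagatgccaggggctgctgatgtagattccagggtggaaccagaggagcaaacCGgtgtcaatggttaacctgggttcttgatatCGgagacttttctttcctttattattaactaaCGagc
Kcnk13: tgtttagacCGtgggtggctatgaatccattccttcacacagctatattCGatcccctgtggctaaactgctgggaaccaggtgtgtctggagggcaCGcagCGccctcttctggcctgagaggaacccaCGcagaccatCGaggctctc
Kcnj15: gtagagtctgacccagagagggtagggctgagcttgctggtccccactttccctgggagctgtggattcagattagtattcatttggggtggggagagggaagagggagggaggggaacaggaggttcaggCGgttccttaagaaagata

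In these stretches Kcnj4 held 23 CG dinucleotides and Kcnj10 held 10, while Kcnip3, Kcnf1 and Kcnj15 held 1 each. Over the full windows of 300 bases, from 250 before to 50 after the start, at least 15 CG were found in 10 of the 17 matched members above 0 in 12 libraries (58.8%). The count was 15 of 34 among members above 0 in 1 to 11 libraries (44.1%) and 2 of 15 among members listed at 0 in all (13.3%). Over all genes with a promoter entry the shares were 76.0%, 52.6% and 13.8% for the same levels. Among the better expressed members (mean of 1 FPKM or more), at least 15 CG were in 7 of the 13 windows of members whose lowest value was at least their highest divided by 8, and in 9 of the 15 others. The letters TATAAA, searched on both strands, were in 2 of the 66 windows (3.03%) and in 12.8% of all promoter windows. Kcnip3 and Kcnj4 had similar means over the 12 libraries (27.8 and 29.5 FPKM) and held 8 and 41 CG in their windows. Their levels per library were unlike, since Kcnj4 was at 0 in 5 libraries and Kcnip3 was not under 6.22 FPKM in any.

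Of the 91 members, 25 were above 0 in all 12 libraries, 46 in 1 to 11 libraries, and 20 were listed at 0 in all, while 26 never exceeded 0.1 FPKM. The mean over the 12 libraries reached 1 FPKM for 41 members and 10 FPKM for 11. The 10 highest members held 61.9% of the FPKM summed over the set, and the 15 highest held 72.9%. The sum over all members was 414 ± 43.0 FPKM (SD, n = 12), with a range of 363 to 504. The 3 sums of a group lay between 381 and 450 in 3-month control, 363 and 450 in 3-month transgenic, 405 and 504 in 10-month control, and 367 and 416 in 10-month transgenic libraries, and the groups overlapped.

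**Figure D1:**
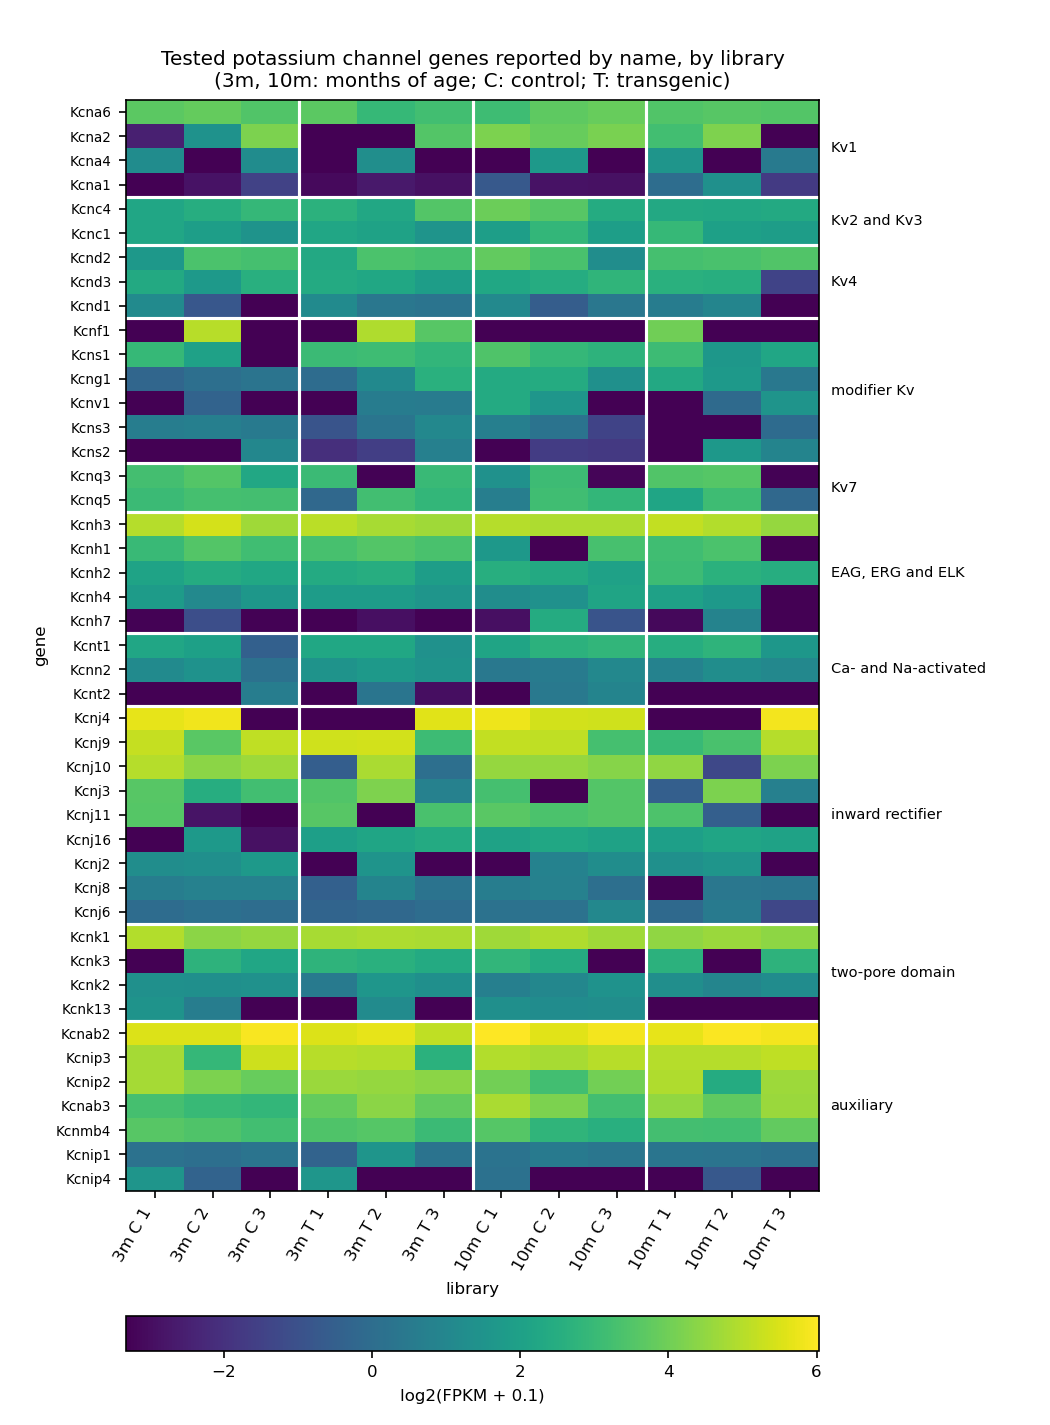
Level of the tested members that are reported by name (rows, grouped by class) in each of the 12 libraries (columns), as log2(FPKM + 0.1). Rows such as Kcnab2, Kcnh3 and Kcnk1 keep a similar colour in every library, whereas Kcnj4, Kcnf1 and Kcna2 hold both high values and values near 0 in every group but 10-month control, and Kcnk13 does so at 3 months.

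Auxiliary subunits held 30.9% of the summed FPKM, the largest share of the 10 classes, and none of their 6 members with a mean of 1 FPKM or more had a low library, here a value under the member's highest value divided by 8. Kcnab2, a cytoplasmic beta subunit of Kv1 channels, had the highest mean of all members. It was at 46.0, 45.9 and 61.9 FPKM in 3-month control, 46.4, 50.9 and 35.0 in 3-month transgenic, 65.3, 49.2 and 58.3 in 10-month control, and 50.8, 63.1 and 58.2 in 10-month transgenic libraries. Its highest and lowest libraries differed 1.87-fold and all groups overlapped. Kcnip3, a calcium-binding protein that joins Kv4 channels and also acts in the nucleus, had 2 levels. It was at 27.4, 7.36 and 39.5 FPKM in 3-month control, 32.2, 30.7 and 6.22 in 3-month transgenic, 31.0, 28.2 and 32.6 in 10-month control, and 32.1, 31.6 and 34.9 in 10-month transgenic libraries. The 2 low values lay at 3 months, 1 in each genotype. Kcnip2, another Kv4 partner, ranged from 5.36 to 30.01 FPKM, and Kcnip1 from 0.694 to 2.84. Kcnab3, a beta subunit of Kv1 channels, had a mean of 15.9 FPKM, and Kcnmb4, the neuronal beta subunit of the large-conductance calcium-activated channel, had 10.0. Kcnma1, the pore of that channel, was listed at 0 in 5 libraries and never exceeded 1.17 FPKM. Kcnab1, the first of the Kv1 beta subunits, was listed at 0 in all 12 libraries.

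Among the Kv1 subunits, which act along axons and at nerve endings, Kcna6 was steady and Kcna2 was not. Kcna6 ranged from 7.60 to 14.4 FPKM over the 12 libraries. Kcna2 was at 0.0785, 2.64 and 18.1 FPKM in 3-month control, 0, 0 and 11.6 in 3-month transgenic, 18.0, 14.3 and 17.9 in 10-month control, and 9.00, 18.5 and 0 in 10-month transgenic libraries. Its 3 values in 10-month control libraries were all high, and every other group held high and low values. Kcna4 was listed at 0 in 6 libraries and reached 3.12 FPKM. Kcna1 stayed at or under 2.50 FPKM, and Kcna3 was listed at 0 in 11 libraries and at 0.153 in the other.

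The Kv3 subunits, which allow fast firing, were led by Kcnc4 with a mean of 7.26 FPKM, and Kcnc1 had a mean of 4.32. Both were above 0 in every library. Kcnc2, a Kv3 subunit of fast-spiking interneurons, was listed at 0 in all 12 libraries, while Pvalb, a marker of those cells, was not under 20.9 FPKM in any. Among Kv4 subunits, which carry the transient dendritic current, Kcnd2 ranged from 2.31 to 13.5 FPKM and Kcnd3 from 0.268 to 6.91. Of the modifier subunits, which are silent alone and join Kv2 pores, Kcnf1 was at 0 in 8 libraries and at 32.8, 29.9, 12.1 and 15.9 FPKM in the other 4. Those 4 were the 3-month control 2, 3-month transgenic 2, 3-month transgenic 3 and 10-month transgenic 1 libraries, so that the high values fell in 3 of the 4 groups. Kcns1 ranged from 0 to 10.9 FPKM and Kcng1 from 0.755 to 5.96.

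Kcnq3 encodes a Kv7 subunit of the neuronal M channel, which restrains repetitive firing. Kcnq3 was at 9.25, 11.4 and 4.80 FPKM in 3-month control, 8.21, 0.00495 and 7.92 in 3-month transgenic, 2.56, 8.40 and 0.00957 in 10-month control, and 11.2, 11.9 and 0.00511 in 10-month transgenic libraries. It was under 0.01 FPKM in 3 libraries of 3 different groups and at 2.56 or more in the other 9. Kcnq5 ranged from 0.787 to 9.60 FPKM, and Kcnq1, known from heart and epithelia, was listed at 0 in all 12 libraries. Kcnh3, an ELK subunit of forebrain neurons, had the second highest mean of all members. It was at 31.8, 42.6 and 25.9 FPKM in 3-month control, 33.5, 28.2 and 25.6 in 3-month transgenic, 31.5, 29.0 and 29.3 in 10-month control, and 35.9, 30.9 and 23.5 in 10-month transgenic libraries, with all groups overlapping. Kcnh1, an EAG subunit, was at 0 in the 10-month control 2 and 10-month transgenic 3 libraries and between 3.08 and 11.4 FPKM elsewhere. Kcnh2, an ERG subunit, ranged from 3.56 to 8.51 FPKM.

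The calcium- and sodium-activated subunits held the smallest share, 1.90% of the summed FPKM. Kcnt1, a sodium-activated subunit, ranged from 0.622 to 6.99 FPKM and Kcnn2, a small-conductance calcium-activated subunit, from 1.03 to 3.23. Kcnt2 was listed at 0 in 7 libraries and did not exceed 1.76 FPKM.

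Inward rectifiers held 23.0% of the summed FPKM, and 7 of their 8 members with a mean of 1 FPKM or more had a low library. Kcnj4, a strong inward rectifier of forebrain neurons, was at 51.1, 57.2 and 0 FPKM in 3-month control, 0, 0 and 48.7 in 3-month transgenic, 55.5, 41.7 and 41.0 in 10-month control, and 0, 0 and 58.8 in 10-month transgenic libraries. It was thus at 0 in 5 libraries and at 41.0 FPKM or more in the other 7, with nothing between. Kcnj9, a G protein-gated subunit, was at 36.5, 12.3 and 35.1 FPKM in 3-month control, 40.6, 41.9 and 8.38 in 3-month transgenic, 36.2, 35.2 and 9.61 in 10-month control, and 7.71, 10.1 and 31.5 in 10-month transgenic libraries. It lay on a lower level of 7.71 to 12.3 in 5 libraries and a higher level of 31.5 to 41.9 in 7, and each group held both. Kcnj3, its G protein-gated partner, ranged from 0 to 18.6 FPKM.

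Kcnj10, the main potassium uptake channel of astrocytes, was at 31.5, 21.3 and 24.9 FPKM in 3-month control, 0.589, 28.4 and 0.978 in 3-month transgenic, 23.1, 23.4 and 20.0 in 10-month control, and 22.4, 0.303 and 18.3 in 10-month transgenic libraries. All 6 control values were at 20.0 FPKM or more and 3 of the 6 transgenic values were under 1, so that transgenic libraries lay on both levels. Of the 7 astrocyte markers, Aldh1l1 was at 12.8, 14.6 and 6.67 FPKM and Aldoc at 215, 213 and 210 FPKM in the 3 libraries with Kcnj10 under 1. Slc1a2, the astrocyte glutamate transporter, was at 4.43, 149 and 10.3 FPKM there and Gja1 at 45.0, 1.60 and 39.7. In the same libraries Aqp4 was at 11.2, 10.5 and 6.31 FPKM, Slc1a3 at 49.9, 61.8 and 16.2, and Gfap at 28.4, 19.8 and 26.5. Between libraries labelled transgenic and control, Slc1a2 had a log2 change of -3.95 (SE 1.26, limma adjusted p = 0.969) at 10 months. Its change over both ages was -2.86 (SE 0.89, limma adjusted p = 0.975). At 10 months Gja1 had a log2 change of 4.64 (SE 2.22, limma adjusted p = 0.969), and 4 of the 7 markers were positive and 3 negative. Slc1a2 was also at 7.96 and 3.66 FPKM in the 10-month transgenic 1 and 3 libraries, where Kcnj10 was at 22.4 and 18.3. The part of the astrocyte markers in the values of Kcnj10 was not tested. The 7 markers, of which Aldoc was the highest, summed to between 324 and 529 FPKM in 3-month control, 320 to 470 in 3-month transgenic, 369 to 551 in 10-month control and 316 to 618 in 10-month transgenic libraries. Gja1 was listed at 0 in the 10-month control 3 library, where Kcnj10 was at 20.0. In bulk cortex, fewer cells of a type and less RNA per cell cannot be told apart. Kcnj16, which joins the Kcnj10 product in astrocyte channels, was near 0 in the 3-month control 1 and 3 libraries, where Kcnj10 was at 31.5 and 24.9 FPKM. Kcnj11, the pore of neuronal ATP-sensitive channels, was at 9.97 to 12.5 FPKM in 7 libraries and at 0.609 or less in 5. Kcnj2, a strong inward rectifier, was at 0 in 4 libraries. Kcnj8, a marker of pericytes, was at 0 in 1 library and otherwise between 0.636 and 1.78 FPKM.

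Of the two-pore domain subunits, Kcnk1 was the most even of the 41 members in the ratio of highest to lowest library (1.46-fold). It was at 30.7, 21.0 and 23.6 FPKM in 3-month control, 27.6, 29.4 and 28.4 in 3-month transgenic, 25.9, 30.4 and 26.1 in 10-month control, and 22.1, 24.7 and 21.8 in 10-month transgenic libraries. Kcnk2, a mechanically gated leak channel, ranged from 1.31 to 2.95 FPKM. Kcnk3, an acid-sensitive leak channel, was at 0 in 3 libraries and between 4.57 and 7.05 FPKM in the other 9. Kcnk9, its relative, was listed at 0 in all 12.

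**Figure D2:**
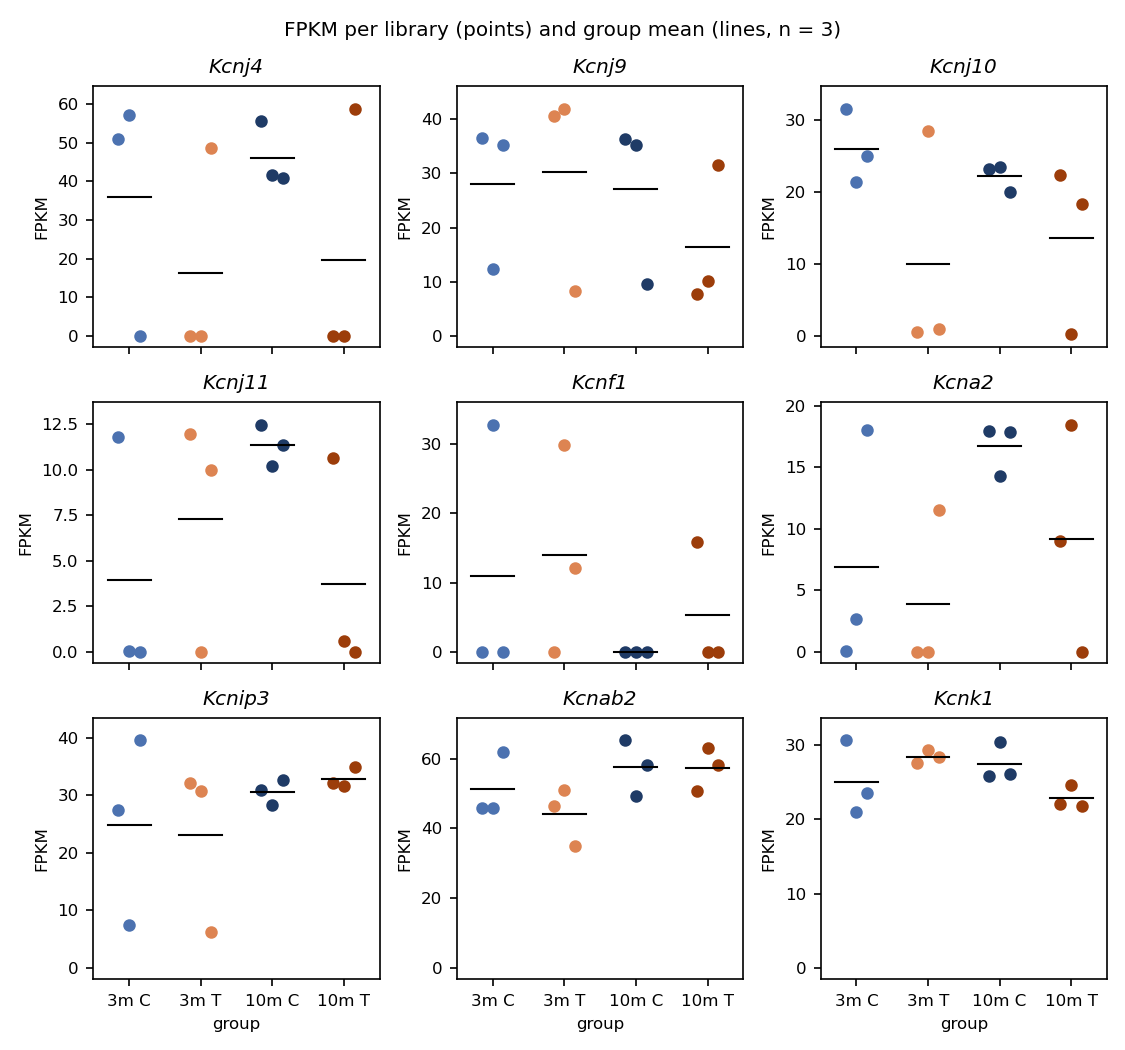
FPKM of 9 members in each library (points) with the group mean (lines, n = 3), where 3m and 10m are months of age, C is control and T is transgenic by label. Kcnj4, Kcnj9, Kcnj10 and Kcnj11 fall on 2 levels within at least 1 group and Kcnip3 does so at 3 months, Kcnf1 is at 0 or between 12.1 and 32.8, Kcna2 is spread from 0 to 18.5, and Kcnab2 and Kcnk1 hold no such gap.

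Of the 41 members with a mean of 1 FPKM or more, 22 had at least 1 low library (53.7%) and 17 had at least 2 (41.5%). Over all 8816 genes with such a mean the shares were 38.2% and 25.9%. Low values were found in every library, from 2 of 41 members in 3-month control 2 to 12 in 10-month transgenic 3, which also listed the most members at 0 (48 of 91) and the fewest genes of any library above 0 (12828). Low values made up 13.0% of the values in 3-month control, 16.3% in 3-month transgenic, 9.76% in 10-month control and 21.1% in 10-month transgenic libraries. Members with few exons in their longest annotated transcript had low libraries most often, in 6 of 6 with 1 or 2 exons, 9 of 16 with 3 to 5, and 7 of 19 with 6 or more. The same order held over all genes, at 81.8%, 40.5% and 30.9%. Kcnj4 and Kcnj10, with 2 exons, and Kcnf1, with 1, were among the first of these groups.

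**Figure D3:**
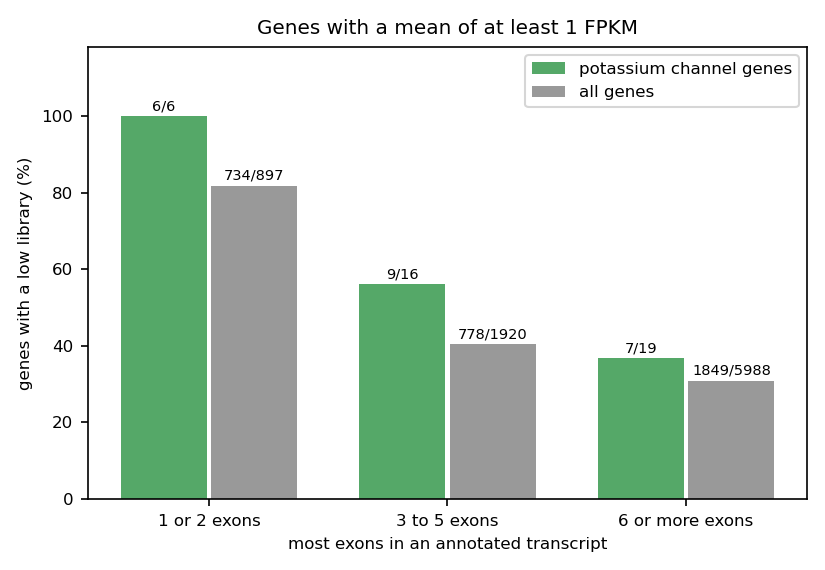
Share of genes with at least 1 low library, in percent, by the largest number of exons of an annotated transcript, for the potassium channel genes (green) and all genes (grey) with a mean of 1 FPKM or more. The share falls from 6 of 6 members with 1 or 2 exons to 7 of 19 with 6 or more, and from 81.8% to 30.9% over all genes.

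The nearest expressed genes on the chromosome were mostly not low where the member was. Kcnj10 lies on chromosome 1 at 172341210 to 172374085 on the plus strand (GRCm38), and its neighbour Pigm was at 1.65 to 2.19 FPKM where Kcnj10 was under 1, against 0 to 2.03 elsewhere. Nomo1 beside Kcnj11 was at 15.2 to 18.7 FPKM where Kcnj11 was low and 15.8 to 21.5 elsewhere, and Pdia6 beside Kcnf1 was at 15.3 to 23.4 and 14.4 to 19.2. Ddx17, the neighbour of Kcnj4 on chromosome 15, varied from 0.540 to 24.0 FPKM among the libraries where Kcnj4 was at 0. Kcnj9 (172320501 to 172329318, minus strand) lies next to Kcnj10, and both were on their lower level in 2 libraries, 3-month transgenic 3 and 10-month transgenic 2, while Kcnj9 alone was low in 3 others and Kcnj10 alone in 1.

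A member with a low mean, Kcne2, was highest in the same libraries as a transcript of the choroid plexus. Kcne2, an auxiliary subunit of the choroid plexus epithelium, was at 0.903 FPKM in 3-month control 1, 1.13 in 3-month transgenic 3 and 1.15 in 10-month transgenic 1, at 0.0376 in 10-month control 3, and at 0 in the other 8 libraries. Ttr, a transcript of that epithelium, was at 728, 300 and 439 FPKM in the same 3 libraries and between 5.24 and 63.5 in the others. Sostdc1, another of the 7 choroid plexus markers, was at 1.164, 1.165 and 1.053 FPKM in those 3 and at 0.8255 or less elsewhere. Other markers differed, since Clic6, Kl, Aqp1 and Prlr were listed at 0 in 10-month transgenic 1. Clic6 was at 0.855 FPKM in 10-month transgenic 2, where Kcne2 was at 0. The 7 markers, of which Ttr was by far the highest, summed to 5.57 to 731 FPKM in 3-month control, 5.30 to 304 in 3-month transgenic, 15.1 to 32.9 in 10-month control and 31.7 to 440 in 10-month transgenic libraries. The 10-month transgenic 1 library also held 1482 FPKM of the pituitary hormone gene Prl, where no other library exceeded 10.0. The part of such tissue in the values of the other members was not tested.

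The genotype comparison at 10 months found no member past the threshold. Of the 91 members, 48 could be tested because the mean of a group or more reached 1 FPKM, and 7 of them had a mean under 1 over all 12 libraries. None of the 48 was called by limma at an adjusted p of 0.05 (smallest adjusted p 0.969), against 0.0102% of the 9846 genes tested. At an unadjusted p under 0.05 there were 2, Kcnk13 and Kcnc4, both lower, against 4.40% of all genes. Kcnk13, a two-pore domain subunit known from microglia, was at 2.44, 2.26 and 2.28 FPKM under the control label and listed at 0 in every library labelled transgenic. Its limma adjusted p was 0.969. It was also at 0 in 1 of the 3 control and 2 of the 3 transgenic libraries at 3 months, and its fitted change is set by the pseudocount. Kcnk13 passed the filter on low values only through the control groups, with means of 1.395 FPKM at 3 months and 2.326 at 10 months. A lower level under the transgenic label was thus favoured by the filter. The 7 microglial markers summed to 89.1 to 102 FPKM in control and 88.5 to 131 FPKM in transgenic libraries at 10 months. Kcnc4 was at 15.2, 11.9 and 5.30 FPKM in control and 4.85, 4.75 and 5.09 in transgenic libraries, a log2 change of -0.997 (SE 0.42, limma adjusted p = 0.969). The 10-month control 3 value was near the transgenic ones, and the other 2 control values were higher. Kcns3, a modifier subunit, had a log2 change of -2.08 (SE 0.99) and Kcna1 one of 2.05 (SE 1.01), and the groups of each overlapped. Kcna1 passed the filter on low values only through the 10-month transgenic group, so its difference was built into the filter.

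The groups did not overlap at 10 months for 3 members, Kcnc4, Kcnk1 and Kcnk13, all lower in the libraries labelled transgenic, against 3.89% of all genes in that direction. The place of Kcnk13 among them was favoured by the filter. Kcnk1 had a log2 change of -0.26 (SE 0.17, limma adjusted p = 0.969). Over the 48 members 19 fitted changes were positive and 29 negative, with a median of -0.18 against 0.0085 over all genes. The median was 0.05 without the 10-month transgenic 3 library, which held the most low values, -0.42 without 10-month control 3 and -0.36 without 10-month transgenic 2. By class, 7 of 9 inward rectifiers and 4 of 6 modifier subunits were negative, and 4 of 7 auxiliary subunits were positive. Inward rectifiers summed to 122 ± 20.5 FPKM in control and 67.6 ± 41.9 in transgenic libraries (SD, n = 3), a sum that includes 2 transgenic values of Kcnj4 at 0.

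At 3 months no member passed the threshold either (smallest limma adjusted p 1), against 0.0406% of all genes. At an unadjusted p under 0.05 there were 2, Kcnj16 and Kcnab3, both higher in the libraries labelled transgenic, against 3.39% of all genes. Kcnj16 was at 0, 3.17 and 0.0335 FPKM in control and 3.76, 4.45 and 5.19 in transgenic libraries, a log2 change of 3.68 (SE 1.06, limma adjusted p = 1). Without the 3-month control 2 library it was 5.29 (SE 0.33, limma adjusted p = 0.000453), with 0 and 0.0335 FPKM left in the control group. The share of all genes called in that fit is not given. The limma adjusted p over the members ranged from 0.000453 to 1 across all alternatives. The 6 values of Kcnj16 at 10 months lay between 3.78 and 4.72 FPKM in both genotypes, within the range of the 3-month transgenic values. Kcnab3 was at 9.68, 7.83 and 7.21 FPKM in control and 14.1, 21.4 and 13.6 in transgenic libraries, a log2 change of 0.96 (SE 0.40, limma adjusted p = 1). The groups of Kcnab3, Kcnj16 and Kcnn2 did not overlap, all higher in the libraries labelled transgenic, against 4.44% of all genes in that direction. Kcnj10 had a log2 change of -3.22 (SE 1.62) and Kcns1, a modifier subunit, one of 2.46 (SE 1.29), both with overlapping groups. Over the 48 members 22 changes were positive and 26 negative, with a median of -0.05 against 0.02 over all genes and a range of -0.16 to 0.09 over the fits that left out a library (without 3-month transgenic 2 and 3-month transgenic 3).

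The test of the difference between the 2 ages, the age by genotype interaction, called no member (smallest limma adjusted p 0.987), against 0.0508% of all genes. At an unadjusted p under 0.05 there was 1, Kcnj16, against 3.32% of all genes, with a log2 difference of -3.75 (SE 1.49, limma adjusted p = 0.987). Without the 3-month control 2 library that difference was -5.36 (SE 0.45, limma adjusted p = 0.00368). That fit rests on 3-month control values of 0 and 0.0335 FPKM, and its share of all genes called is not given. Kcnc4 followed at -1.28 (SE 0.60) and Kcnk1 at -0.46 (SE 0.24). The median over members was -0.35, and over the fits that left out a library it ranged from -0.48 without 3-month transgenic 1 to 0.13 without 10-month transgenic 3, with -0.17 without 3-month transgenic 2 and -0.20 without 3-month control 3.

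**Figure D4:**
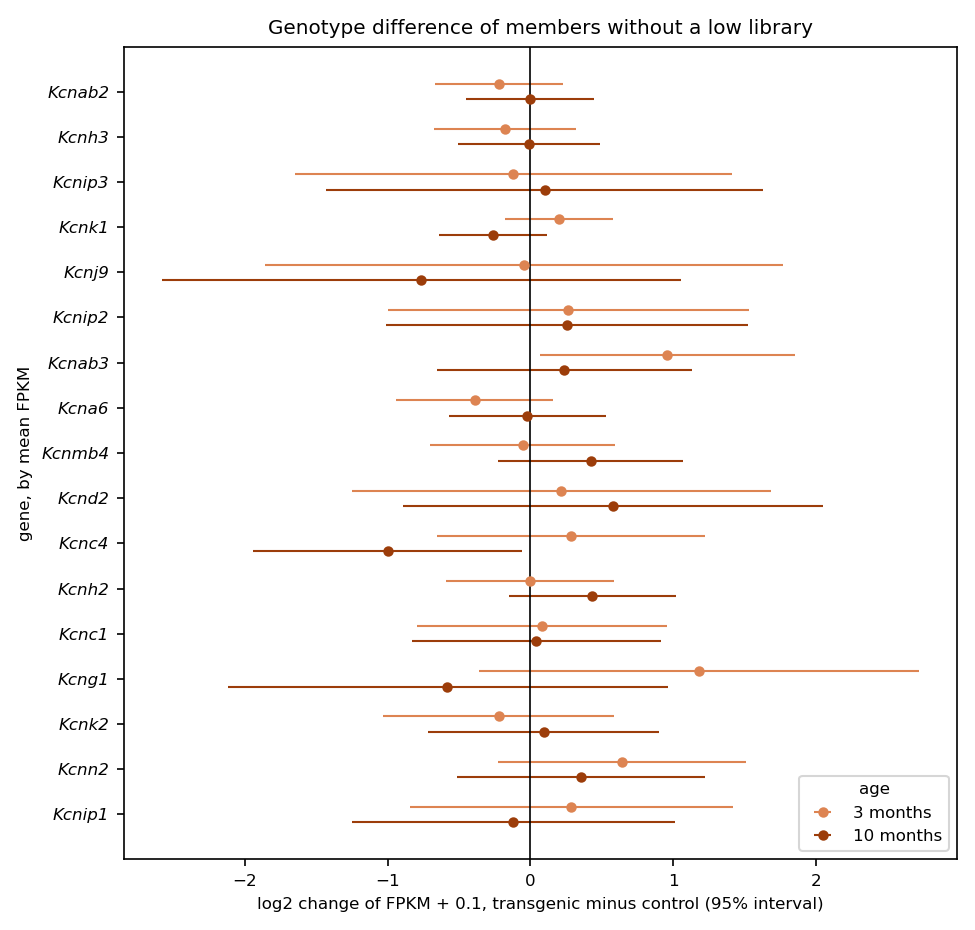
Log2 change of FPKM + 0.1 between libraries labelled transgenic and control (points) with its 95% interval (lines) at 3 months (light) and 10 months (dark), for the members reported by name that had a mean of 1 FPKM or more and no low library. The point of Kcnab2 at 10 months lies at -0.0032, that of Kcnab3 at 3 months at 0.96 and that of Kcnc4 at 10 months at -0.997, and the intervals other than those of the latter 2 include 0.

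Precision differed between members with and without a low library. The 19 members without a low library had a median SE of 0.39 on the log2 scale in each genotype comparison, and the 22 with a low library had 1.69. A low library and the SE are both taken from the spread of the same values. A larger SE and wider intervals thus follow largely from the definition. At 10 months the interval of the change lay within 1 log2 unit on either side of 0 for 7 of the 19 and for 0 of the 22, and the counts were the same at 3 months. Kcnab2 had an interval of -0.45 to 0.45 at 10 months, Kcnh3 one of -0.51 to 0.48, and Kcnk1 one of -0.64 to 0.12. Kcnj4 had an interval of -13.2 to 1.65, so that no change of a useful size could be told from none. Changes over 2-fold were outside the interval for those 7 and for no member with a low library.

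With age in control mice no member passed (smallest limma adjusted p 0.994), against 0.0305% of all genes. At an unadjusted p under 0.05 there were 3, all higher at 10 months, against 4.19% of all genes. Kcnj16 had a log2 change of 3.64 (SE 1.06), which was 5.25 (SE 0.33, limma adjusted p = 0.00035) without the 3-month control 2 library. The latter rests on 3-month control values of 0 and 0.0335 FPKM, and the share of all genes called in that fit is not given. Kcng1, a modifier subunit, was at 0.755, 0.968 and 1.12 FPKM at 3 months and 5.23, 5.32 and 2.47 at 10 months, a log2 change of 2.02 (SE 0.69, limma adjusted p = 0.994). Kcnab3 was at 28.6, 17.9 and 9.17 FPKM at 10 months, a log2 change of 1.03 (SE 0.40), and its lowest 10-month value lay below its highest 3-month value. The 2 ages did not overlap for Kcng1, Kcnj16 and Kcnj6, higher at 10 months (background 6.80%), and for Kcnj2, lower (3.25%), which was listed at 0 in the 10-month control 1 library. Kcnj6 was tested only because its 10-month control mean reached 1 FPKM, so that its place among these is set by the filter. The 3-month control libraries enter this comparison and the 3-month genotype comparison alike, so the values of Kcnj16 in the 2 are not independent.

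With age in transgenic mice no member passed (smallest limma adjusted p 0.974), against 0.0203% of all genes. At an unadjusted p under 0.05 there were 2, against 4.31% of all genes. Kcna1 was at 0.0181, 0.0547 and 0.0349 FPKM at 3 months and 0.903, 2.50 and 0.204 at 10 months, a log2 change of 2.78 (SE 1.01, limma adjusted p = 0.974). The same limit of the filter holds here. Kcns3 was at 0.439, 1.13 and 1.98 FPKM at 3 months and 0, 0 and 0.861 at 10 months (log2 change -2.39, SE 0.99, limma adjusted p = 0.974). It passed the filter only through the 3-month groups, with means of 1.445 FPKM in control and 1.183 in transgenic libraries. A fall of Kcns3 with age was thus favoured by the filter. The ages did not overlap for Kcna1, higher at 10 months (background 5.78%), or for Kcnk1 and Kcnn2, lower (3.65%). Kcnk1 was at 27.6 to 29.4 FPKM at 3 months and 21.8 to 24.7 at 10 months, a log2 change of -0.32 (SE 0.17, limma adjusted p = 0.974).

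Averaged over both ages, the genotype comparison called no member (smallest limma adjusted p 0.975, background 0.0508%). At an unadjusted p under 0.05 there were 3, Kcnk13, Kcnj16 and Kcnj10, against 3.75% of all genes. Kcnk13 was tested only through its control groups, so its place here was favoured by the filter. Kcnj10 had a log2 change of -2.61 (SE 1.14), where 3 of 6 transgenic libraries were at 18.3 FPKM or more and the other 3 under 1. Averaged over both genotypes, the age comparison called none (smallest limma adjusted p 0.935, background 0.0813%), with Kcnj16, Kcnab3, Kcng1 and Kcns3 at an unadjusted p under 0.05 against 4.40% of all genes. Kcns3 was tested only through its 3-month groups, so its place here was favoured by the filter. Without the 3-month control 2 library Kcnj16 passed in both averaged comparisons, at limma adjusted p-values of 0.00461 and 0.00452. The 3-month control values left were 0 and 0.0335 FPKM, and the share of all genes called in that fit is not given. The groups of either averaged comparison were free of overlap for 0 members, against 0.173% and 0.366% of all genes. Of the 19 members without a low library, the interval lay within 1 log2 unit of 0 for 11 in the averaged genotype comparison and for 13 in the averaged age comparison.

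In the authors' deposited table for 10 months, 70 members had a q-value, of which 0 were under 0.05 (0.0052% of all genes with a q-value), and 4 had a p-value under 0.05, against 4.14% of the genes of that table. In the authors' deposited table Kcnk13 had a fold change of transgenic over control of 0.301 at 10 months, with p = 1.13e-05 and q = 0.0591. Kcnj4 had one of 0.0418 in the authors' deposited table, with p = 0.023 and q = 0.854. These are not ratios of the mean FPKM. The 10-month means of Kcnk13 were 0 FPKM in transgenic and 2.33 in control libraries, and those of Kcnj4 were 19.6 and 46.1. The other 2 members with a p-value under 0.05 were Kcnb2, a Kv2 subunit, and Kcnh2 (fold change 1.39 in the authors' deposited table). For 3 months, 64 members had a q-value in the authors' deposited table, 0 of them under 0.05 (0.0156% of all genes with a q-value), and 2 had a p-value under 0.05, Kcnn4 among them, against 3.22% of its genes. Kcnn4 did not exceed 0.0347 FPKM in any library.

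Of 25 partner genes of potassium channels outside the Kcn names, 18 were tested and 0 were called in any of the 7 comparisons (smallest limma adjusted p 0.301). At 10 months 4 of them had positive and 14 negative changes, with a median of -0.37, against 50.7% positive and 0.0085 over all genes. At 3 months 11 were positive and 7 negative, with a median of 0.06, against 52.1% and 0.02. The 10-month median of the Kcn members was 0.05 without the 10-month transgenic 3 library, and the part of that library in the split of the partners was not tested. Calm3, which encodes the calmodulin bound by Kv7 and small-conductance channels, had the highest mean of the list and ranged from 554 to 729 FPKM. Dpp6, a Kv4 partner, stayed within 13.6 to 16.5 FPKM while Kcnd2 ranged from 2.31 to 13.5. Of the 4 Hcn genes, whose channels carry the hyperpolarization-activated current, 3 were tested and 0 were called (smallest limma adjusted p 0.945), and Hcn2 ranged from 18.9 to 27.3 FPKM.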

How the data were processed

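RNA was extracted and made into stranded, ribosomal RNA-depleted libraries, per the labels' protocols. The values are FPKM per gene, computed by the authors and deposited as a table per age. The submitters' processing notes name StringTie 1.3.0, HISAT2 2.0.4, SAMtools and R 3.4.2, with builds mm10 and GRCm38. For the annotation and the use of strand, the sources used here state nothing. Of the 48 tested members, 25 overlap the span of an annotated gene on the other strand, introns included. Reads from any exon bases that such genes share cannot be told apart if strand was not used, and shared exon bases were not counted. The authors' deposited tables also give a fold change, its log2 value, p-values and q-values, per the file headers. The headers state neither the test nor how the fold change was computed, and it is not the ratio of the mean FPKM.

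Members were found by symbol, and some genes of that form or of the lists are counted but not reported here by name or drawn, or are left out. The members, lists and rules were chosen with earlier results of these data known. Genes with a group mean of at least 1 FPKM were tested on log2(FPKM + 0.1), which understates changes of low genes, with limma 3.58.1 in R 4.3.3 (a mean per group over all 12 libraries, eBayes with trend and robust). Both tables entered that fit as deposited. P-values were two-sided and adjusted for multiple testing (Benjamini-Hochberg, all 9846 tested genes), with a threshold of 0.05. The fit was tested on simulated data. Alternatives were other pseudocounts, filters, scalings, weights, a replicate block, each age alone and leaving out each library; setting low values to missing was added after seeing the data, as was the definition of a low library. Members were named by 4 smallest p-values per comparison, 15 highest means and 3 highest per class, and others, such as Kcnj11, Kcnj6, Kcnj2, Kcnj8, Kcnip1, Kcna3, Kcnc2, Kcnk9, Kcnab1, Kcnma1, Kcne2 and Kcnq1, after their values were seen. Positions are from GENCODE vM21 on GRCm38. The labels give biological replicates, and nothing more on their source.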

Additional observations from a re-analysis of the deposited data

How the results depend on the processing

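The number of members past the threshold was 0 in each of the 7 comparisons and in 151 of 156 values under the alternatives. The other 5, each a count of 1 for Kcnj16, came from leaving out the 3-month control 2 library, so that over the fits without a single library the counts ranged from 0 to 1 in the genotype comparison at 3 months, the interaction, the age comparison in control mice and both averaged comparisons. The share of all genes called in the fit without that library is not given, so these 5 counts stand without a background. The cause of the 5 counts was not tested beyond the values of Kcnj16 given above. With the replicate block the count was 0 in all 7 comparisons. Libraries with the same number correlated no better in their deviations (r of -0.123 to 0.094) than those with different numbers (-0.135 to 0.151), so the number does not pair them. Of 5650 values of named members, 127 moved by 1 SE or more and 5 passed the threshold. The median change of the members moved in 22 of 156 values. At 10 months it was -0.0076 with a filter at 5 FPKM and 0.02 with low values set to missing, where no member was called either. Values near or at 0 in genes well expressed in other libraries, 3 libraries per group and an unknown depth limit what can be said of the 22 members with a low library.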
